A study of Mus musculus with 6 samples.

Results

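C-type lectins and killer lectin receptors were taken as all genes whose symbol in the annotation of the array starts with Clec, Cd209, Klr or Colec. The rule found 70 genes among 20416 measured genes, on 512 probe sets that carry 1 gene symbol each: 31 Clec, 7 Cd209, 3 Colec and 29 Klr genes. RNA of fibrotic mouse kidneys was hybridised to 3 arrays of CBAxB6-TGFbeta mice, a background of CBA and B6 that the labels also mark KO, and 3 arrays of B6-TGFbeta mice, which the labels also mark WT. Both groups carry TGFbeta in their names. The labels give no knocked-out gene, no age or sex beyond a statement that cohorts were matched littermates, and nothing on how TGF-β1 was raised or in which cells, and neither group lacks it. Whether the strains were already unlike without TGF-β1 or answered it unlike each other cannot be told apart, nor can a genotype behind the words KO and WT. The series title sets the backgrounds apart by their sensitivity to fibrosis, and the comparison here asks how the lectin receptor genes differ between them.

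C-type lectin receptors share a fold that binds sugars in some members and proteins or lipids in others. On macrophages and dendritic cells the activating receptors signal through the adaptors FcRγ or DAP12, or through a motif of their own, to the kinase SYK and the adaptor CARD9, while inhibitory receptors carry motifs that recruit phosphatases. The killer lectin receptors (Klr) have the same fold, are known from natural killer (NK) cells and subsets of T cells, and mostly recognise MHC class I molecules, proteins related to them, or the Clec2 proteins on other cells. In the mouse most of these genes lie in clusters on chromosome 6, and the content of the Klra cluster differs between inbred strains.

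Of the 70 genes, 11 were higher in CBAxB6-TGFbeta kidneys, 1 was lower and 58 did not pass an adjusted p of 0.05 in limma. Over all 20416 genes 3.08% were called higher and 4.57% lower, 7.65% in either direction. The higher genes were the myeloid receptors Clec4n, Clec5a, Clec4e, Clec7a, Clec4a3, Clec4a1, Clec12a and Clec4a2, the DC-SIGN homologue Cd209a, the scavenger collectin Colec12 and Clec2e, with log2 differences of 0.46 to 1.29. The lower gene was Clec2h, at -1.15. None of the 28 Klr receptors passed in limma or in its trended, robust, weighted and unmoderated forms, while 1 (Klra5, lower) passed with the brightest probe set as the gene value, and 4 had an unadjusted p under 0.05, where 21.5% of all genes did. The median log2 difference was 0.12 over the 70 genes, 0.10 over the Klr receptors and 0.018 over all genes. Values of the groups did not overlap in 19 higher and 2 lower genes of the 70, and in 13.5% and 13.4% of all genes, 26.8% in either direction.

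**Figure D1:**
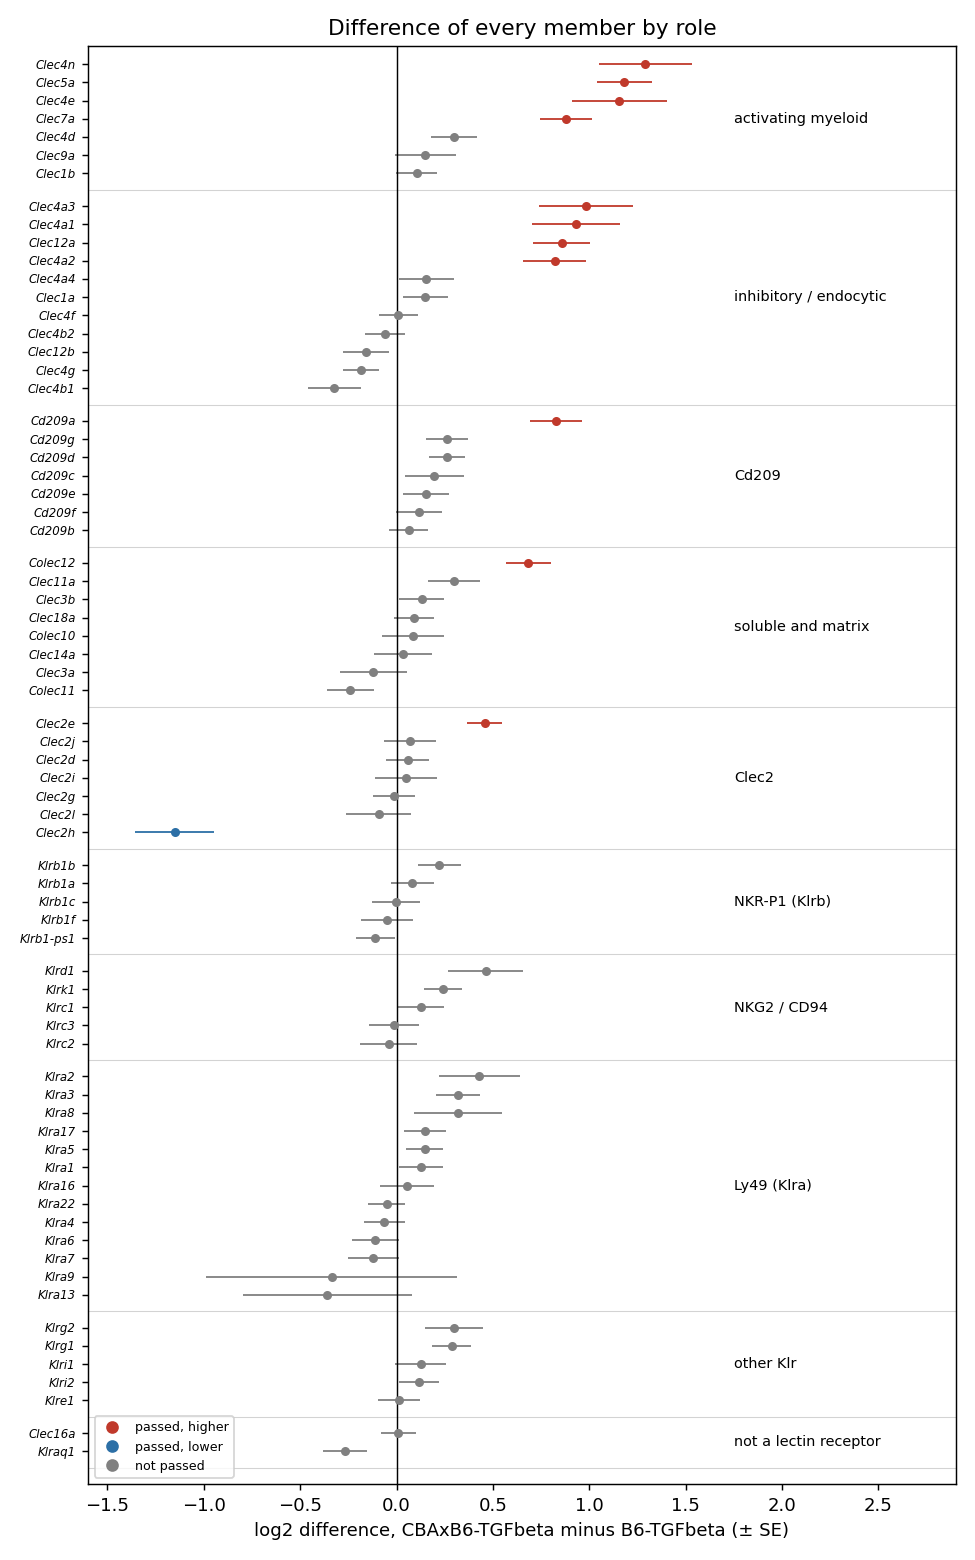
Log2 difference (CBAxB6-TGFbeta minus B6-TGFbeta, x axis) of all 70 genes, grouped by role, with the standard error of the limma fit as bars. Red points passed as higher (11 genes), the blue point passed as lower (Clec2h) and grey points did not pass; no Klr receptor is coloured.

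The calls were few once 1 array was removed. Without CBAxB6-TGFbeta replicate 4, 5 or 6, the count of higher members was 1, 2 and 2, and without B6-TGFbeta replicate 1, 2 or 3 it was 0, 1 and 0, while the calls over all genes fell to between 57 and 554. The log2 differences of the 11 higher genes stayed positive in all 6 of these fits and that of Clec2h stayed negative. This is built in and no sign of stability, because the groups of these genes did not overlap over all arrays. Among the CBAxB6-TGFbeta arrays replicate 5 had the lowest value in 9 of the 11 higher genes, and among the B6-TGFbeta arrays replicate 2 had the highest in 9.

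Replicate 2 of B6-TGFbeta also stood apart in markers of tissue next to the kidney, with the brown fat gene Ucp1 at 10.93 and the chromaffin gene Chgb at 11.21, against at most 6.22 and 6.32 on the other 5 arrays. Alb, the albumin gene, stood at 10.94 on CBAxB6-TGFbeta replicate 6 and 9.45 on B6-TGFbeta replicate 2, and at 6.00 to 6.29 on the others. The part of these tissues in the lectin values was not tested; the counts without each array are those above. The kidney itself was plain in the tubule and podocyte genes, whose mean level was 9.78 to 9.89 on the CBAxB6-TGFbeta arrays and 10.28 to 10.38 on the B6-TGFbeta arrays. Over all probe sets, array medians lay between 7.27 and 7.34.

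Many of the 70 genes were dim. As a yardstick for background served the 982 olfactory receptor genes (Olfr), most of which are silent outside the nose, and 19 of the 70 genes had a mean over the 6 arrays above the 95th percentile of these, a log2 intensity of 6.02. They included 5 of the 12 genes that passed (Colec12, Clec2h, Clec4a3, Cd209a and Clec12a) and 2 of the 28 Klr receptors. In 8 of the 12 genes that passed the B6-TGFbeta mean lay below this level, so their log2 differences are differences of intensity near background and no fold is given for them. Intensities depend on the probes of each gene, so levels of different genes give no order of abundance, and the gene value summarises bright and dim probe sets of 1 gene alike. Of the 97 probe sets of the 11 higher genes, 91 had a positive difference, which is partly built in because the gene values are made from them.

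**Figure D2:**
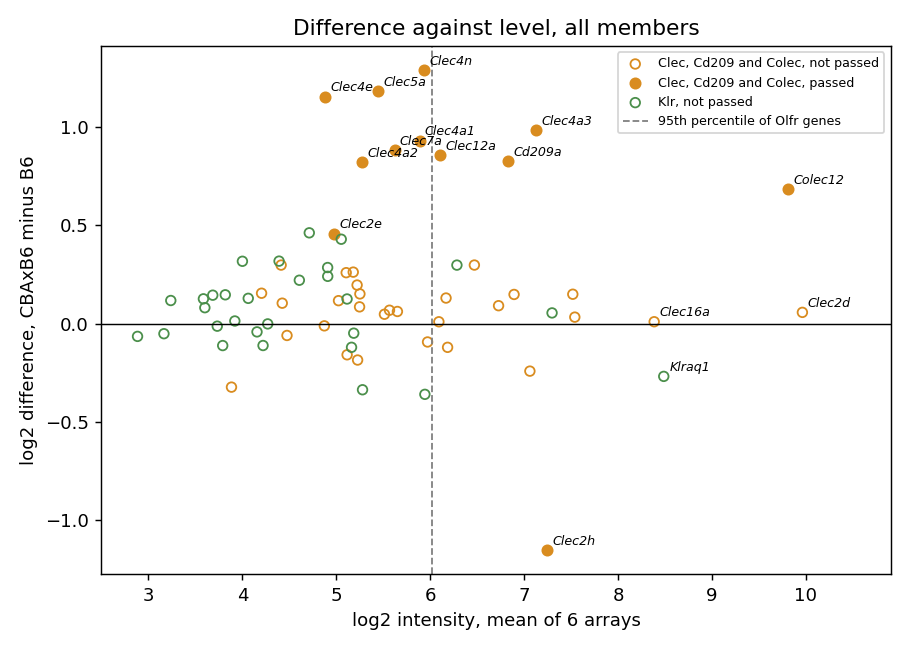
Log2 difference (y axis) against mean log2 intensity over the 6 arrays (x axis) for the 70 genes, filled where adjusted p was under 0.05. The dashed line is the 95th percentile of the Olfr genes at 6.02, and 19 genes lie to its right.

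Activating receptors of myeloid cells held the 3 largest increases of the set, and 4 of 7 passed, with a median difference of 0.88. The 7 leave out Clec4b1 and Clec4b2, which are described with their DCIR neighbours although their products also signal through FcRγ; with both, 4 of 9 passed and the median was 0.30. Clec4n, which encodes Dectin-2, a receptor for fungal mannans that signals through FcRγ, had log2 intensities of 6.87, 5.96 and 6.90 on the CBAxB6-TGFbeta arrays, against 5.16, 5.57 and 5.13 on the B6-TGFbeta arrays. The groups did not overlap, with replicate 5 the lowest of the CBAxB6-TGFbeta arrays, and the fit gave a log2 difference equal to 1.29 (SE 0.24, adjusted p = 0.0139). All 8 probe sets were higher, from 0.31 to 1.93, and 2 of them passed by themselves in a fit over all 241576 probe sets, where 0.535% passed. In that fit 5 member probe sets passed as higher and 1 as lower, where 0.236% and 0.299% of all probe sets did.

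Clec5a encodes MDL-1, which pairs with the adaptor DAP12 and is found on monocytes and neutrophils. It had 6.15, 6.20 and 5.78 on the CBAxB6-TGFbeta arrays, against 4.83, 5.06 and 4.69 on the B6-TGFbeta arrays. All CBAxB6-TGFbeta values lay at least 0.72 above the B6-TGFbeta values, with a log2 difference equal to 1.18 (SE 0.14, adjusted p = 0.00186). Its 10 probe sets were all higher, from 0.21 to 1.90. Of the 12 genes that passed, Clec5a had the smallest adjusted p and kept it under 0.05 in 2 of the 6 fits with 1 array left out, at differences of 0.92 to 1.26.

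Clec4e encodes Mincle, which binds mycobacterial glycolipids and a nuclear protein released by dead cells. It had 6.15, 5.06 and 5.16 on the CBAxB6-TGFbeta arrays, against 4.22, 4.33 and 4.35 on the B6-TGFbeta arrays. Replicate 4 lay more than 0.9 above replicates 5 and 6, so that the spread within CBAxB6-TGFbeta was 0.60 (SD, n = 3), and the fit gave a log2 difference equal to 1.15 (SE 0.25, adjusted p = 0.0244). Without CBAxB6-TGFbeta replicate 4 the difference was 0.81, and without B6-TGFbeta replicate 1 it was 0.72. Of its probe sets 8 of 9 were higher, from -0.17 to 1.82, and the exception was the brightest, with 8.42 in CBAxB6-TGFbeta and 8.59 in B6-TGFbeta.

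Clec7a encodes Dectin-1, the receptor for fungal β-glucan, which signals to SYK through a motif in its own tail. It had 6.13, 5.76 and 6.29 on the CBAxB6-TGFbeta arrays, against 5.14, 5.20 and 5.20 on the B6-TGFbeta arrays. The B6-TGFbeta arrays lay within 0.07 of each other and all CBAxB6-TGFbeta arrays above them, with a log2 difference equal to 0.88 (SE 0.14, adjusted p = 0.00602). Of its probe sets 6 of 7 were higher, from -0.057 to 1.69, and again the brightest was the one that was not, with 7.53 in CBAxB6-TGFbeta and 7.59 in B6-TGFbeta.

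The other 3 activating receptors did not pass. Clec4d, which encodes MCL, the partner of Mincle on the cell surface, averaged 4.56 in CBAxB6-TGFbeta and 4.26 in B6-TGFbeta, with no overlap and a log2 difference equal to 0.30 (SE 0.12, adjusted p = 0.189). Clec9a, which encodes the dead-cell receptor DNGR-1 of cross-presenting dendritic cells, averaged 6.97 in CBAxB6-TGFbeta and 6.82 in B6-TGFbeta, a difference of 0.15 (SE 0.16) with overlapping groups. Clec1b, which encodes CLEC-2, the podoplanin receptor of platelets, averaged 4.48 in CBAxB6-TGFbeta and 4.37 in B6-TGFbeta, below the background level, and differed by 0.10 (SE 0.11).

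**Figure D3:**
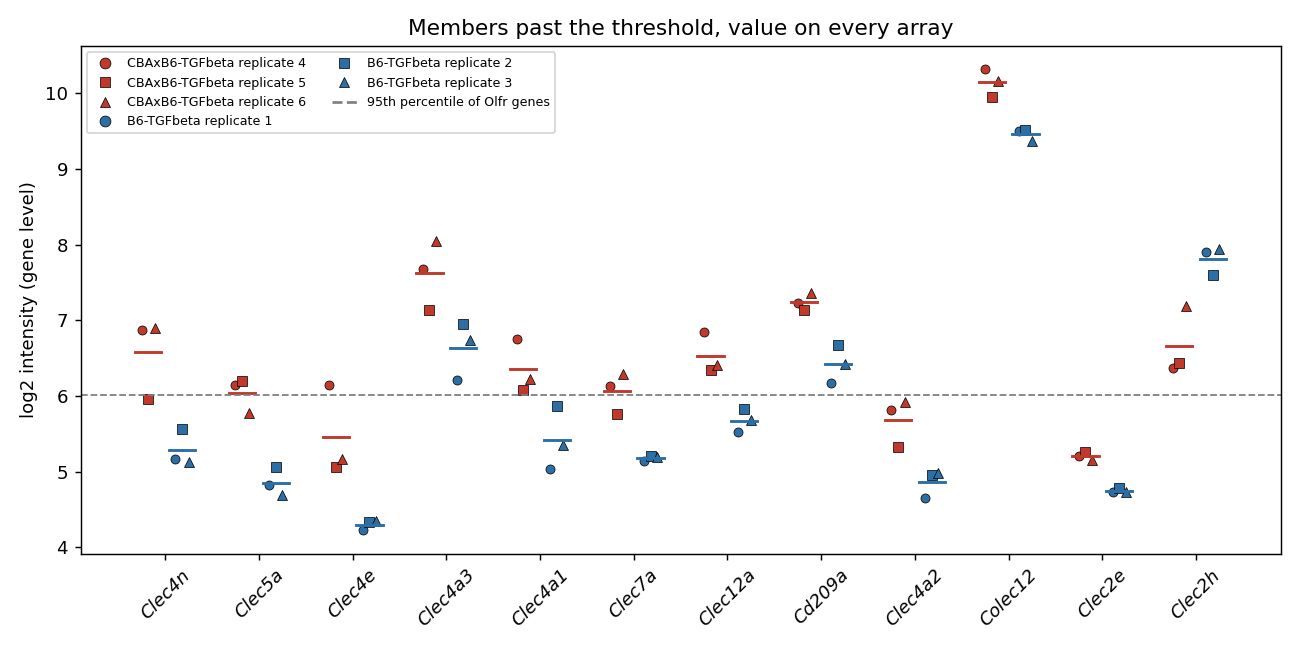
Log2 intensity (y axis) of the 12 genes that passed, on each of the 3 CBAxB6-TGFbeta arrays (red) and the 3 B6-TGFbeta arrays (blue), with group means as lines, ordered by difference. In each gene the groups do not overlap; 7 of the 12 genes have a mean over the 6 arrays below the dashed line, the 95th percentile of the Olfr genes at 6.02.

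Promoter sequences are shown for 3 of these activating receptors, which were higher together, and for Clec2h, the gene that was lower. They were taken from RefSeq (build GRCm38.p6), from 250 bases before to 50 bases after the start of the gene, and capitals mark GAGGAA on either strand (TTCCTC as read here), a purine-rich sequence of the kind bound by ETS factors, a family that includes the myeloid factor PU.1.
Clec5a (chr6:40585756-40586055, minus strand): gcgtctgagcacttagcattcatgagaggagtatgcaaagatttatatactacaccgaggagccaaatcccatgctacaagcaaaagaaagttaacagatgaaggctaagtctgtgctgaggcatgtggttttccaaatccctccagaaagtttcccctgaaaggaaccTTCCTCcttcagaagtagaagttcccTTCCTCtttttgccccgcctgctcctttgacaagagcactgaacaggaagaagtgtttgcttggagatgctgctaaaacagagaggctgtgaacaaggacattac
Clec4e (chr6:123289822-123290121, minus strand): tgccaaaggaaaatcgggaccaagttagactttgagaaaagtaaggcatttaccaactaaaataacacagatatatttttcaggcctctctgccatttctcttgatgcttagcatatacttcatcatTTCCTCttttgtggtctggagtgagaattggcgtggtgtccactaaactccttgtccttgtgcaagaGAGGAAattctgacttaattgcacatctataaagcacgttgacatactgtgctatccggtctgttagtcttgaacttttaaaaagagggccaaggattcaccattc
Clec7a (chr6:129472730-129473029, minus strand): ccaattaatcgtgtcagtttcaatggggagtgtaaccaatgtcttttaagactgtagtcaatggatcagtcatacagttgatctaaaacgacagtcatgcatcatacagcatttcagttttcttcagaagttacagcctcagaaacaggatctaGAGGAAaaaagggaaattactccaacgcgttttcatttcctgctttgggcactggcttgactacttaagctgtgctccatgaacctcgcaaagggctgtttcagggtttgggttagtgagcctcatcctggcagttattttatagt
Clec2h (chr6:128662135-128662434, plus strand): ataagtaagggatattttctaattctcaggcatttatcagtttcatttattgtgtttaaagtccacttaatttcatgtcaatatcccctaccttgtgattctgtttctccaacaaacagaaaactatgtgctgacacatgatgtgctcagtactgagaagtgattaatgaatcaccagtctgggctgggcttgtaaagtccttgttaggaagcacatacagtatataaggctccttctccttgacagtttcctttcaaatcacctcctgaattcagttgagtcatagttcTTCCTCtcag
Clec5a and Clec4e held 2 matches each, and Clec7a and Clec2h 1 each. GAGGAA on either strand was present in 5 of the 9 higher genes with a promoter entry, in 50.9% of the 55 promoters of the whole set and in 28.3% of 27025 promoters of the same length, so most members that hold it are not among those that changed. The match is a description of these letters and no sign of binding.

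Of 11 genes of the DCIR group and of other inhibitory or endocytic receptors of myeloid cells, 4 were higher (4 of 9 without Clec4b1 and Clec4b2), and 3 of these belong to the Clec4a (DCIR) group. Clec4a3 had 7.68, 7.13 and 8.05 on the CBAxB6-TGFbeta arrays, against 6.21, 6.95 and 6.75 on the B6-TGFbeta arrays. The spread was wide in both groups, but they did not overlap, and the fit gave a log2 difference equal to 0.98 (SE 0.24, adjusted p = 0.0426). It did not pass with robust moderation (adjusted p = 0.0503) or array weights (adjusted p = 0.0606), and its brightest probe set differed by -0.18. Clec4a1 had 6.75, 6.08 and 6.22 on the CBAxB6-TGFbeta arrays, against 5.04, 5.87 and 5.35 on the B6-TGFbeta arrays. Replicate 2 of B6-TGFbeta came within 0.21 of replicate 5 of CBAxB6-TGFbeta, with a log2 difference equal to 0.93 (SE 0.23, adjusted p = 0.0395). With the brighter 50% of its probe sets Clec4a1 differed by 0.48 and did not pass, and without CBAxB6-TGFbeta replicate 4 by 0.62. Clec4a2, the DCIR gene itself, whose product carries an inhibitory motif, had 5.82, 5.33 and 5.92 on the CBAxB6-TGFbeta arrays, against 4.66, 4.96 and 4.98 on the B6-TGFbeta arrays. All 11 of its probe sets were higher, from 0.21 to 2.33, with a log2 difference equal to 0.82 (SE 0.16, adjusted p = 0.0182). Without CBAxB6-TGFbeta replicate 6 Clec4a2 differed by 0.49.

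Clec12a encodes MICL, an inhibitory receptor of granulocytes, monocytes and dendritic cells that binds uric acid crystals. It had 6.85, 6.34 and 6.41 on the CBAxB6-TGFbeta arrays, against 5.52, 5.83 and 5.68 on the B6-TGFbeta arrays. The groups did not overlap, with a log2 difference equal to 0.86 (SE 0.15, adjusted p = 0.00969), and all 7 probe sets were higher, from 0.027 to 1.59.

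Among the 7 of these 11 genes that did not pass, Clec4a4, a further DCIR gene, averaged 4.28 in CBAxB6-TGFbeta and 4.13 in B6-TGFbeta and differed by 0.15 (SE 0.14). Clec4b1 and Clec4b2 encode the related DCAR receptors, which signal through FcRγ and so act as activating receptors. Clec4b1 averaged 3.72 in CBAxB6-TGFbeta and 4.05 in B6-TGFbeta, a difference of -0.32 (SE 0.14). Clec4b2 averaged 4.45 in CBAxB6-TGFbeta and 4.51 in B6-TGFbeta, and all 3 of these genes lay below the background level. Clec12b, an inhibitory neighbour of Clec12a, averaged 5.04 in CBAxB6-TGFbeta and 5.19 in B6-TGFbeta. Clec4f, a receptor known from Kupffer cells of the liver, averaged 6.10 in CBAxB6-TGFbeta and 6.09 in B6-TGFbeta, a difference of 0.0097 (SE 0.10). Clec4g, the LSECtin gene known from liver and lymph node sinus endothelium, averaged 5.13 in CBAxB6-TGFbeta and 5.32 in B6-TGFbeta, a difference of -0.18 (SE 0.094) with the CBAxB6-TGFbeta arrays all lower. Clec1a, which encodes the fungal melanin receptor MelLec of endothelial and myeloid cells, averaged 7.59 in CBAxB6-TGFbeta and 7.44 in B6-TGFbeta, a difference of 0.15 (SE 0.12).

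In the Cd209 family, homologues of the human mannose-binding receptor DC-SIGN, 1 of 7 genes passed. Cd209a, which in the mouse marks dendritic cells derived from monocytes, had 7.23, 7.14 and 7.37 on the CBAxB6-TGFbeta arrays, against 6.17, 6.67 and 6.42 on the B6-TGFbeta arrays. The groups did not overlap, and the fit gave a log2 difference equal to 0.83 (SE 0.14, adjusted p = 0.00818), 1.77-fold on the linear scale, with 9 of 10 probe sets higher. With the brighter 50% of its probe sets it differed by 0.48 and did not pass. The other 6 genes lay below the background level and did not pass, with differences of 0.062 to 0.26. Under some alternatives the sign of Cd209b, Cd209e and Cd209f turned, so no direction is read from these. Cd209b, the SIGN-R1 gene of marginal zone macrophages in the spleen, averaged 5.68 in CBAxB6-TGFbeta and 5.62 in B6-TGFbeta. Cd209c averaged 5.32 in CBAxB6-TGFbeta and 5.12 in B6-TGFbeta. Cd209d, at 5.24 in CBAxB6-TGFbeta and 4.98 in B6-TGFbeta, did not overlap between the groups and missed the threshold (adjusted p = 0.14). The means of Cd209e were 5.33 in CBAxB6-TGFbeta and 5.18 in B6-TGFbeta. Cd209f stood at 5.08 in CBAxB6-TGFbeta and 4.97 in B6-TGFbeta. Cd209g rested on 1 probe set, at 5.31 in CBAxB6-TGFbeta and 5.05 in B6-TGFbeta, again without overlap (adjusted p = 0.198).

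Collectins are lectins with a collagen-like stalk, soluble in plasma for Colec10 and Colec11 and membrane-bound for Colec12, a scavenger receptor of endothelium and stroma that takes up oxidised lipoproteins and microbes. Colec12 was among the 3 brightest of the 70 genes, with 10.32, 9.96 and 10.17 on the CBAxB6-TGFbeta arrays, against 9.50, 9.52 and 9.37 on the B6-TGFbeta arrays. The fit gave a log2 difference equal to 0.68 (SE 0.12, adjusted p = 0.00917), 1.61-fold, and 10 of 11 probe sets were higher, from -0.19 to 1.06. Colec11, the gene of kidney collectin CL-11, which starts the lectin pathway of complement and is made by tubular epithelium, averaged 6.94 in CBAxB6-TGFbeta and 7.18 in B6-TGFbeta, a difference of -0.24 (SE 0.12) that did not pass (adjusted p = 0.299). Its liver partner Colec10 averaged 5.29 in CBAxB6-TGFbeta and 5.21 in B6-TGFbeta, below the background level. The endothelial genes of the marker list went the other way from Colec12, with 4 of 8 passing as lower, where 4.57% of all genes did. With any 1 array left out 0 of the 8 passed. The mean level of this list was 8.96 to 9.06 on the CBAxB6-TGFbeta arrays and 9.37 to 9.48 on the B6-TGFbeta arrays.

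The 5 Clec genes grouped as soluble, matrix-linked or non-immune did not pass in limma, and none had an unadjusted p under 0.05. Clec14a, a receptor of endothelial cells, averaged 7.56 in CBAxB6-TGFbeta and 7.52 in B6-TGFbeta, a difference of 0.033 (SE 0.15). Clec11a, a growth factor of bone and blood stem cells, averaged 6.62 in CBAxB6-TGFbeta and 6.32 in B6-TGFbeta, without overlap and with 0.30 (SE 0.13). Clec3b, the tetranectin gene, which binds plasminogen, averaged 6.23 in CBAxB6-TGFbeta and 6.10 in B6-TGFbeta. Clec3a, known from cartilage, averaged 6.12 in CBAxB6-TGFbeta and 6.25 in B6-TGFbeta. Clec18a rested on 21 probe sets and averaged 6.77 in CBAxB6-TGFbeta and 6.68 in B6-TGFbeta.

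Clec2 proteins sit on many cells and are the ligands of the NKR-P1 receptors encoded by Klrb genes. Here 1 of 7 genes was lower and 1 higher. Clec2h, which encodes Clr-f, known from epithelium of the gut and of kidney tubules, had 6.37, 6.43 and 7.18 on the CBAxB6-TGFbeta arrays, against 7.91, 7.60 and 7.94 on the B6-TGFbeta arrays. CBAxB6-TGFbeta replicate 6 was closer to the B6-TGFbeta arrays than replicates 4 and 5, but the groups did not overlap, and Clec2h fell by 1.15 on the log2 scale (SE 0.21, adjusted p = 0.0114), 2.22-fold lower on the linear scale. All 7 probe sets were lower, from -1.76 to -0.39, 1 of them passing by itself, and its brightest probe set averaged 9.09 in CBAxB6-TGFbeta and 10.22 in B6-TGFbeta. Tubule and podocyte genes were lower in the same kidneys, 7 of 10 passing as lower, where 4.57% of all genes did. The injury gene Havcr1 passed as higher. Among the genes that were lower were the salt transporter genes Slc12a3 at -1.53 (SE 0.17) and Slc12a1 at -0.86 (SE 0.12). With 1 array left out, this list had 2 to 4 calls in place of 8. The part of a change in tubular cells in the value of Clec2h was not tested. In whole kidney fewer cells of a type and less RNA per cell cannot be told apart, here or for the genes above. Whether the probes read both strain backgrounds alike was not tested either, for this gene or any other member.

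Clec2e had 5.20, 5.27 and 5.15 on the CBAxB6-TGFbeta arrays, against 4.74, 4.79 and 4.73 on the B6-TGFbeta arrays. These arrays agreed closely within each group, and the fit gave a log2 difference equal to 0.46 (SE 0.091, adjusted p = 0.0175), the smallest of the 11 increases, at a level below the Olfr yardstick. With the brighter 50% of its probe sets it was 0.34 and did not pass. Clec2d was the brightest of the 70 genes. It encodes Clr-b, a ligand of the inhibitory receptor encoded by Klrb1b, and had 10.17, 9.98 and 9.82 on the CBAxB6-TGFbeta arrays, against 9.92, 9.92 and 9.96 on the B6-TGFbeta arrays. The groups overlapped, with a difference of 0.058 (SE 0.11). Clec2i, the gene of Clr-g, a ligand of the receptor encoded by Klrb1f, averaged 5.54 in CBAxB6-TGFbeta and 5.49 in B6-TGFbeta. Clec2g averaged 4.87 in CBAxB6-TGFbeta and 4.88 in B6-TGFbeta. Clec2l, known from brain, averaged 5.93 in CBAxB6-TGFbeta and 6.02 in B6-TGFbeta. Clec2j, a pseudogene in RefSeq, averaged 5.60 in CBAxB6-TGFbeta and 5.53 in B6-TGFbeta. The differences of these 4 genes lay between -0.093 and 0.068 and none passed.

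None of the 28 killer lectin receptor genes passed in limma. In that fit 4 (Klrg1, Klra3, Klrk1 and Klrd1) had an unadjusted p under 0.05, all with higher values in CBAxB6-TGFbeta. The sign of Klrk1 turned with its brightest probe set as the gene value. The differences of the 28 genes ran from -0.36 to 0.46, and 26 of the 28 had a mean level below the Olfr yardstick. Levels in the sentences on these genes are means over all 6 arrays. Levels this low do not show that the receptors were absent or that the strains were alike.

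NKG2D, the activating receptor for stress ligands encoded by Klrk1, had a level of 4.91. Its arrays read 4.95, 5.12 and 5.02 on the CBAxB6-TGFbeta arrays, against 4.80, 4.70 and 4.86 on the B6-TGFbeta arrays, without overlap, and the difference was 0.24 (SE 0.098), adjusted p = 0.194. Of its 13 probe sets 10 were higher and 3 lower, among these the brightest at -0.26, so no direction is read from Klrk1. Klrd1 encodes CD94, the partner of the NKG2 proteins that bind the MHC molecule Qa-1, and had a level of 4.71. The SD within CBAxB6-TGFbeta was 0.42, and its difference was the largest of the Klr receptors, 0.46 (SE 0.20), adjusted p = 0.209, with overlapping groups. The NKG2 genes themselves were dimmer, Klrc1 (inhibitory NKG2A) at 4.06, Klrc2 (activating NKG2C) at 4.16 and Klrc3 (NKG2E) at 3.73, with differences of -0.042 to 0.13.

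Among the NKR-P1 genes, Klrb1c, which encodes the NK1.1 antigen of B6 mice, had a level of 4.27 and a difference of -0.0011 (SE 0.12). Klrb1b, the inhibitory receptor for the Clec2d product, had 4.61 and a difference of 0.22 (SE 0.11). The activating gene Klrb1a stood at 3.60, Klrb1f at 5.19 and the pseudogene Klrb1-ps1 at 4.22, with differences of -0.11 to 0.081.

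The Ly49 family (Klra, 13 symbols here) encodes receptors for classical MHC class I molecules, in inhibitory and activating forms. Klra13 is a transcribed pseudogene in RefSeq. Klra3, which encodes the inhibitory Ly49C, had a level of 4.39, no overlap and a difference of 0.32 (SE 0.11), adjusted p = 0.14. Klra2, the gene of Ly49B, known from myeloid cells, had 5.05 and 0.43 (SE 0.21) with overlap. Klra17, the gene of Ly49Q of plasmacytoid dendritic cells and other myeloid cells, stood at 3.82 and differed by 0.15 (SE 0.11). Klra8, which encodes Ly49H, the receptor that recognises a protein of mouse cytomegalovirus, stood at 4.00 and differed by 0.32 (SE 0.23). Of the inhibitory genes, Klra1 (Ly49A) stood at 3.59, Klra5 (Ly49E) at 3.68, Klra6 (Ly49F) at 3.79 and Klra7 (Ly49G) at 5.16. The activating Klra4 (Ly49D) stood at 2.88 and Klra22, an older name of Klra1 in RefSeq, at 3.17, with differences of -0.12 to 0.14 over these 6 genes. Klra9, Klra13 and Klra16 rested on 1 probe set each, at 5.28, 5.94 and 7.30, with differences of -0.34 (SE 0.65), -0.36 (SE 0.44) and 0.055 (SE 0.14). Whether the probe set of Klra16, the only Ly49 gene above the yardstick, reads other Ly49 genes was not tested. The SD of Klra9 was 1.39 in CBAxB6-TGFbeta and 0.97 in B6-TGFbeta (SD, n = 3 each), the widest of the set. The Ly49 genes are close copies of each other, and 30 further probe sets, most of them with several Klra symbols, could not be given to 1 gene. Their differences ran from -0.30 to 0.27, and in the fit over probe sets 0 passed and 0 had an unadjusted p under 0.05.

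Of the remaining Klr genes, Klrg1, a receptor for cadherins on effector T and NK cells, had a level of 4.91 and 5.13, 5.02 and 5.01 on the CBAxB6-TGFbeta arrays, against 4.87, 4.64 and 4.79 on the B6-TGFbeta arrays. The groups did not overlap, and the difference was 0.29 (SE 0.10), adjusted p = 0.134. Klrg2 stood at 6.28, above the yardstick, with 0.30 (SE 0.15) and overlap. Klre1 at 3.92 and its partners Klri1 at 5.11 and Klri2 at 3.24, which form receptors of NK cells in pairs, differed by 0.014 to 0.13.

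A pair of genes met the naming rule but do not encode lectin receptors. Klraq1, an older name of Ppp1r21, takes its symbol from a short sequence motif, and was among the 3 brightest genes, with 8.28, 8.55 and 8.23 on the CBAxB6-TGFbeta arrays, against 8.73, 8.59 and 8.54 on the B6-TGFbeta arrays. It differed by -0.27 (SE 0.11), adjusted p = 0.216. Clec16a, an endosomal regulator of mitochondrial turnover, averaged 8.39 in CBAxB6-TGFbeta and 8.38 in B6-TGFbeta, a difference of 0.0099 (SE 0.092). Without both, the counts are 11 higher and 1 lower of 68.

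**Figure D4:**
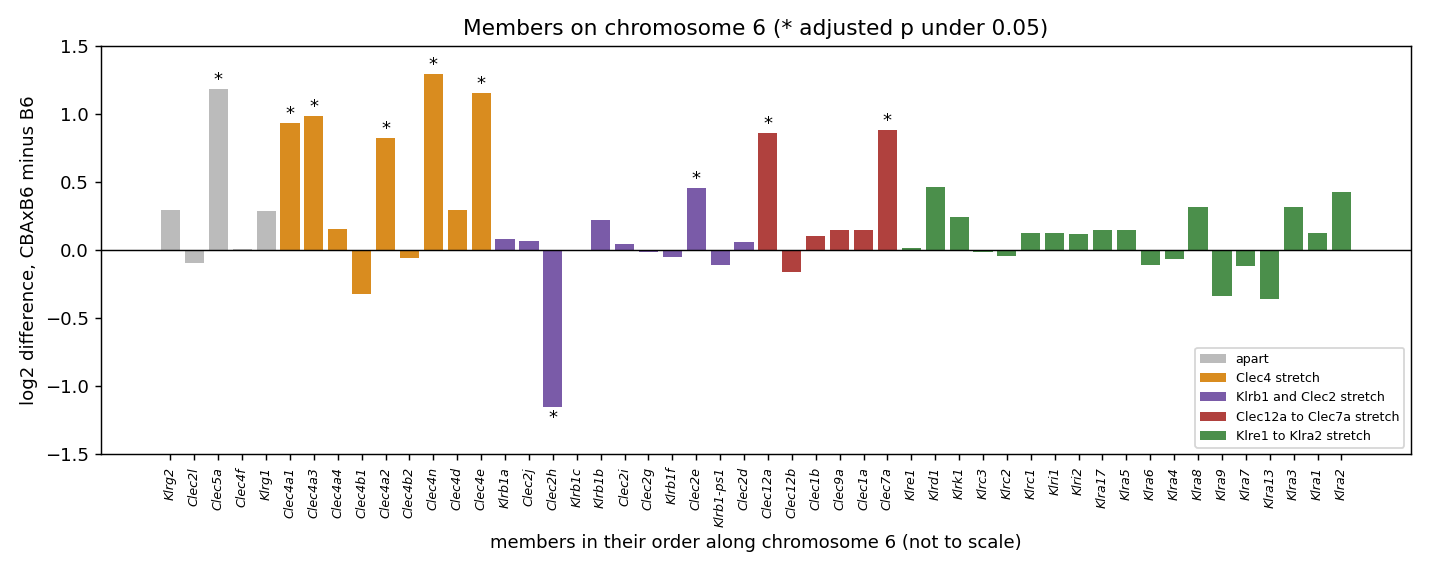
Log2 difference (y axis) of 50 members on chromosome 6 in their RefSeq order (x axis, not to scale), coloured by stretch, with stars on genes of adjusted p under 0.05. Klra16, which has a scaffold of its own, and Klra22, an older name of Klra1, are left out. Stars stand on 5 of 9 genes of the Clec4 stretch, 2 of 11 of the Klrb1 and Clec2 stretch, 2 of 6 from Clec12a to Clec7a and 0 of 19 from Klre1 to Klra2.

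On chromosome 6, in the gene order of RefSeq (GRCm38.p6), the calls lay in 3 of 4 runs of neighbouring members and at Clec5a, which lies apart from them. In the Clec4 stretch from Clec4a1 to Clec4e, 5 of 9 genes were higher, and the median difference was 0.82. Clec4a4, Clec4b1, Clec4b2 and Clec4d, between genes that were higher, did not pass. In the stretch of Klrb1 and Clec2 genes, Clec2h was lower and Clec2e higher among 11, with a median of 0.05. From Clec12a to Clec7a the outer 2 of 6 genes were higher, and the median was 0.15. In the 19 genes from Klre1 to Klra2, next in the order of members, none passed in limma, and the median was 0.13. Among them Klrd1, Klrk1 and Klra3 had an unadjusted p under 0.05 in that fit. The limits of the stretches were drawn after the values were seen, and no test was made between them.

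Other genes that code for the signalling of these receptors were listed. Of 21 genes of SYK, CARD9 and adaptor signalling, 4 passed as higher (3.08% of all genes did) and 17 did not pass. The median difference was 0.17. Tyrobp, the DAP12 gene, averaged 8.88 in CBAxB6-TGFbeta and 7.66 in B6-TGFbeta, a difference of 1.22 (SE 0.18), adjusted p = 0.00548. Fcer1g, which encodes FcRγ, averaged 7.97 in CBAxB6-TGFbeta and 7.25 in B6-TGFbeta, a difference of 0.72 (SE 0.15). The kinase gene Btk and the adaptor gene Lcp2 differed by 0.94 (SE 0.15) and 0.62 (SE 0.15). Syk itself differed by 0.31 (SE 0.12) and Card9 by 0.086 (SE 0.10), and neither passed; both were named after their values were seen. All 4 calls were lost in each fit with 1 array left out.

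Of 35 further genes with C-type lectin-like domains, 6 passed as higher (3.08% of all genes did) and 29 failed to. The median was 0.16. Olr1, the gene of the oxidised LDL receptor LOX-1, lies in the same chromosome 6 family and differed by 1.22 (SE 0.21). The hyaluronan receptor gene Cd44 differed by 1.78 (SE 0.21), and the mannose receptor gene Mrc1 and the matrix proteoglycan gene Vcan by 1.56 (SE 0.18) and 2.20 (SE 0.11). The list of ligand genes of NKG2D and NKG2A was drawn up with the classical MHC class I genes H2-D1 and H2-K1 on it as well. Of its 6 measured genes, the NKG2D ligand genes Raet1d, at 1.22 (SE 0.29), and H60b, at 0.82 (SE 0.17), passed as higher. The other 4 did not, and the median was 0.29. Strains differ in the number and sequence of these ligand genes. With 1 array left out, 1 to 3 of the lectin-domain genes and none of the ligand genes passed in limma; the ligand genes had 2 with an unadjusted p under 0.05 over all arrays.

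Markers of the cells that carry these receptors moved as follows, as mean log2 levels of each list. The 18 macrophage and monocyte genes stood at 7.94 to 8.36 on the CBAxB6-TGFbeta arrays and 7.16 to 7.35 on the B6-TGFbeta arrays. Of these, 9 passed as higher (3.08% of all genes did) and 1, Mertk, as lower (4.57%), with a median difference of 0.61. Replicate 5 was the lowest CBAxB6-TGFbeta array for this list, as it was for 9 of the 11 higher members. It was also the lowest for the SYK, ligand, dendritic, neutrophil, platelet, liver and fat lists, so this is not particular to macrophage genes. For the NK, T cell, B and plasma cell, adrenal, endothelial, kidney and further lectin-domain lists another array was the lowest. Msr1, Ccr2 and Itgam differed by 2.19 (SE 0.15), 2.34 (SE 0.29) and 1.62 (SE 0.20). The 12 dendritic cell genes, which include Cd209a, stood at 6.51 to 6.58 on the CBAxB6-TGFbeta arrays and 6.22 to 6.38 on the B6-TGFbeta arrays, with Cd209a, Itgax, by 0.91 (SE 0.15), and Flt3, by 0.47 (SE 0.097), passing as higher. The 11 neutrophil genes stood at 5.80 to 5.94 on the CBAxB6-TGFbeta arrays and 5.33 to 5.49 on the B6-TGFbeta arrays, with Lcn2, which injured tubules also make, Mmp8 and Retnlg passing as higher and Ly6g at 4.15. The part of more myeloid cells in the lectin increases was not tested.

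For the NK receptors, the 28 measured NK cell genes stood at 5.76 to 5.86 on the CBAxB6-TGFbeta arrays and 5.50 to 5.60 on the B6-TGFbeta arrays, 6 passing as higher and 22 not passing, with a median of 0.10. Itga2, Ccl5, Sh2d1b1 and Il18rap, which other cells also express, led them, at 1.16 (SE 0.12), 1.30 (SE 0.16), 1.15 (SE 0.20) and 0.97 (SE 0.18). Ncr1, the gene of the NK receptor NKp46, chosen after its value was seen, averaged 4.68 in CBAxB6-TGFbeta and 4.74 in B6-TGFbeta and differed by -0.052 (SE 0.091). The 10 T cell genes stood at 5.79 to 5.92 on the CBAxB6-TGFbeta arrays and 5.72 to 5.82 on the B6-TGFbeta arrays, with Cd2 passing as higher, and the 8 B and plasma cell genes at 5.50 to 5.67 on the CBAxB6-TGFbeta arrays and 5.43 to 5.58 on the B6-TGFbeta arrays, with 0 passing in limma and 1 at an unadjusted p under 0.05. The 5 platelet genes stood at 6.43 to 6.72 on the CBAxB6-TGFbeta arrays and 6.12 to 6.24 on the B6-TGFbeta arrays, with Ppbp passing as higher. With 1 array left out the macrophage list had 0 to 5 calls, the NK and neutrophil lists 0 to 2 and the T cell, dendritic and platelet lists 0. Of the liver, fat and adrenal genes, 7 each, none passed in limma, and 2 adrenal genes had an unadjusted p under 0.05, lower in CBAxB6-TGFbeta.

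Probe sets of 1 gene did not all move alike. In 5 genes of myeloid cells the brightest probe set moved little. It differed by -0.18 in Clec4a3, -0.17 in Clec4e, -0.057 in Clec7a, 0.027 in Clec12a and 0.062 in Clec4a1, against gene differences of 0.98, 1.15, 0.88, 0.86 and 0.93. In Clec5a, Clec4a2 and Colec12 it differed by 1.30, 0.70 and 0.74. In Cd209a, Clec4n and Clec2e the brightest probe set differed by 0.25, 0.76 and 0.30, against gene differences of 0.83, 1.29 and 0.46. With the brightest probe set as the value of each gene, 1 member passed as higher, Colec12, and Klra5 passed as lower, against its gene difference of 0.14; Clec2h did not pass. The array does not show whether a bright probe set that stays level reads the gene named for it.

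**Figure D5:**
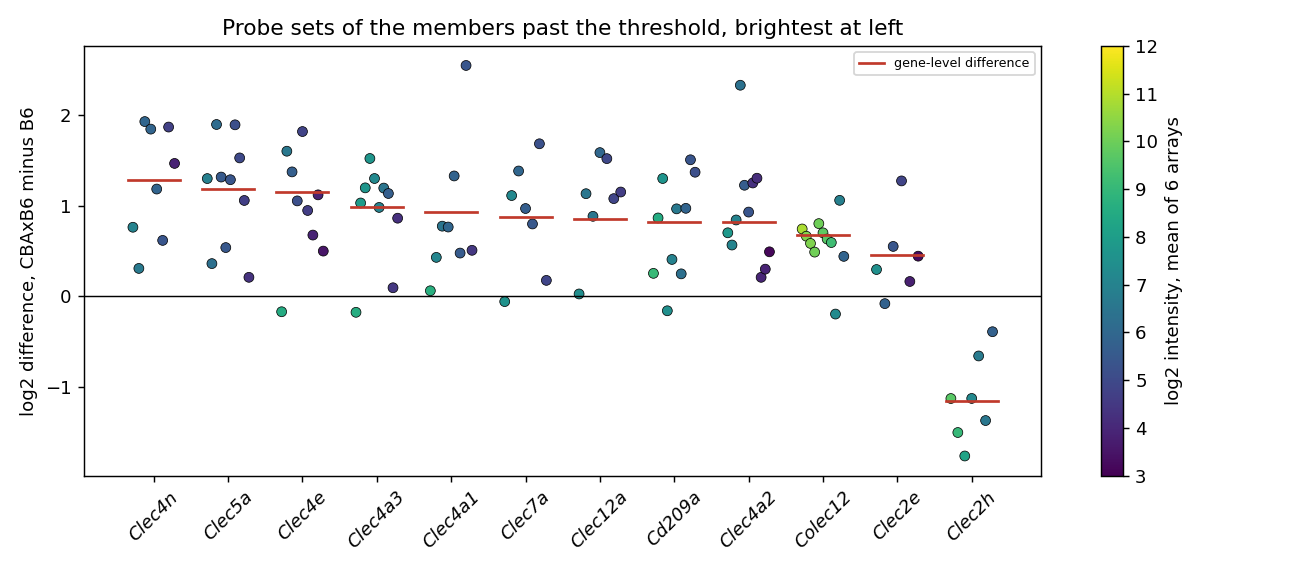
Log2 difference (y axis) of each probe set of the 12 genes that passed, ordered from the brightest at left within a gene and coloured by mean log2 intensity, with the gene-level difference as a red line. Of the 97 probe sets of the 11 higher genes 91 lie above 0, and all 7 of Clec2h lie below it; the brightest probe sets of Clec4e, Clec4a3 and Clec7a lie just under 0.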

How the data were processed

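The deposited values are log2 intensities, with a row for each probe set of an Affymetrix array. Per the submitters' processing notes the authors used RMA and Partek, without further detail of settings or build. Each array was taken as 1 animal, which the labels do not state, so p-values measure the spread between arrays. From 241576 rows, median polish made 20416 genes from the 212097 that have 1 symbol; 4475 rows with several symbols and 25004 with none were left out of the gene fit. Members matched RefSeq (GRCm38.p6, for names, gene order and promoters) by current symbol (67) or older name (3).

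Differences, CBAxB6-TGFbeta minus B6-TGFbeta, come from limma 3.58.1 (R 4.3.3) over all 6 arrays with moderated variances; p-values are two-sided and Benjamini-Hochberg adjusted over all genes, with SE from that fit. Simulated data for this comparison over 20416 genes held 200 changed genes. Of genes changed by 2 on the log2 scale 98.5% were recovered, of those changed by 1 55.2% and of those changed by 0.5 0%. Among 109 calls 6 were unchanged genes. The fit to the real data called 1562 genes, so the shares recovered need not hold for it, and Clec2e passed at 0.46. Each difference rests on 3 arrays per group, and what limits precision was not tested. Members and lists were chosen with earlier results of these data known. A level is given for each member, and the difference as a value, as a range over several members or through the group means. Array values are printed for members that passed, for those without overlap at a difference of 0.5 or more and for the 3 brightest. Klrk1 and Klrg1 were added after their values were seen. List genes are named up to 4 per list by smallest p. Alternatives covered normalization, gene summary, a filter on dim genes, moderation and each array left out; 2 were added after seeing the data, a fit with B6-TGFbeta replicate 3 alone for its group and the fit over probe sets.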

Additional observations from a re-analysis of the deposited data

How the results depend on the processing

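The counts of 11 higher members, 1 lower member and 1562 called genes stayed within 1.5 times under median centring, a second quantile normalization, the mean of a gene's rows, the brighter 50% of rows, trended or robust moderation and array weights. With the brightest row of each gene they were 1, 1 (Klra5, the 1 call among the Klr receptors, in place of Clec2h) and 617. Without the dimmest 25% of genes they were 6, 1 and 1727, because Clec4e, Clec5a, Clec7a, Clec4a2 and Clec2e were among the genes removed. Without moderation they were 0, 0 and 63. With B6-TGFbeta replicate 3 as the only B6-TGFbeta array, whose spread is then taken from the other group, they were 0, 0 and 40. Leaving out 1 array at a time, they ranged from 0 to 2, from 0 to 1 and from 57 to 554. With the brightest row, the difference turned to -0.18 in Clec4a3, -0.17 in Clec4e, -0.057 in Clec7a, -0.072 in Itgax and -0.88 in Klra5, where it passed; the cause was not tested. In 37 members that passed in neither fit the sign differed under at least 1 of 17 alternatives, so no direction is read from them. Members above background numbered 19, and 22 to 23 under other yardsticks. No paired analysis was possible because the groups share no replicate numbers. Mean levels of 26 of the 28 Klr receptors and of 7 of the 12 members that passed lay below the Olfr yardstick.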
